A study of Mus musculus with 26 samples.

Results

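RNA-seq data of the mouse choroid plexus (ChP) of the 4th ventricle were examined for the collagen and laminin genes, which encode the chains of the stromal matrix and of the basement membrane. The genes were chosen by name and level: of 55416 genes listed, 55 had a symbol of the form of a collagen chain (Col, a number, a and a number) or of a laminin chain (Lama, Lamb or Lamc and a number), and 42 of these had a mean CPM (counts scaled to a common library total) of at least 1 in both main groups. The 42 genes comprised 33 collagen and 9 laminin chains and belonged to the 13697 genes of the whole data set that passed the same minimum. The 13 chains below it ranged from Col9a1 at 0.0422 CPM to Col25a1 at 0.910 CPM in Ctrl (which reached 1.35 in SCNx), and the chains nearest to it from above were Col20a1 and Col11a1, each at a mean of 1.19 CPM in Ctrl. Ctrl were 12 sham-operated adult male C57Bl6J mice, and SCNx were 12 mice of the same strain, sex and age in which the suprachiasmatic nuclei (SCN), the site of the master clock, had been destroyed electrolytically. After release into constant darkness 1 mouse of each group was killed every 4 h from CT0 to CT44 (circadian time, h), so that no time point had a second animal in its group. KO were 2 adult male FoxJ1-ERT2-Cre+/-; Bmal1fl/fl mice given tamoxifen in the diet and kept in a light-dark cycle, 1 killed at ZT7 and 1 at ZT18. Ctrl and SCNx mice were 4 to 6 months old, and the KO mice, also on the C57Bl6J background, were 8 months old when given tamoxifen. The FoxJ1 promoter drives the inducible Cre in cells with motile cilia, ChP epithelium among them, and littermates without Cre or without tamoxifen were not analysed here.

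Libraries held 38751201 to 47335258 estimated counts in Ctrl, 41807043 to 49527655 in SCNx, and 17425207 and 18059227 in KO. Markers of ChP epithelium (10 genes, summed) lay at 91350.5 to 109276 CPM in Ctrl, 68748 to 102812 in SCNx, and 47502 and 52766 in KO, and all 10 were at 1 CPM or more in each of the 24 Ctrl and SCNx libraries. A few libraries stood apart. Ctrl CT4 and SCNx CT32 were rich in brain markers: 8 genes of neurons and cerebellum summed to 333 and 437 CPM there, against medians of 17.2 in Ctrl and 15.4 in SCNx. The KO libraries held 249.6 and 333. SCNx CT0 and Ctrl CT16 held hepatocyte transcripts (8 genes, 9681 and 2167 CPM, against medians of 4.19 in SCNx and 2.46 in Ctrl). The targeted gene Arntl (Bmal1) was at 10.6 and 9.36 CPM in KO, within the Ctrl range of 2.11 to 40.3, and a count over the whole gene does not test the deleted exons or the share of cells that lost them.

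Collagens are trimers of chains whose triple helix needs a glycine at the start of every triplet of residues. Fibrillar collagens such as types I and III, made mainly by fibroblasts, build the fibres of the stroma, whereas collagen IV and the laminins, heterotrimers of an alpha, a beta and a gamma chain, assemble into the sheets of the basement membrane on which epithelium and endothelium rest. Collagen VIII is a short-chain collagen that forms networks in the basement membrane of the corneal endothelium and in vessel walls, and collagen IX is best known from cartilage, where it sits on collagen II fibrils. In the ChP an epithelial and a vascular basement membrane enclose a stroma with fenestrated capillaries and fibroblasts.

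The repeat that defines the collagens could be read from their coding sequences, and a stretch of 72 coding bases is given for each of 4 chains on which the results turn. Capitals mark the glycine codons (GGN), the sequences run 5′ to 3′ on the coding strand, and they were read from the transcript with the longest coding sequence of each gene in GENCODE vM21, starting at coding base 502 of Col1a1, 529 of Col9a3, 934 of Col8a2 and 2887 of Col4a2.
Col1a1: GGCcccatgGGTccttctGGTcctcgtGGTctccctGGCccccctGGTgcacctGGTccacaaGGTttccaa
Col9a3: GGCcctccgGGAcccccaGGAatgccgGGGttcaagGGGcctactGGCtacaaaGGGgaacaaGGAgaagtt
Col8a2: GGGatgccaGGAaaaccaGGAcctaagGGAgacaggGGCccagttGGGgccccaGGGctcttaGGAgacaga
Col4a2: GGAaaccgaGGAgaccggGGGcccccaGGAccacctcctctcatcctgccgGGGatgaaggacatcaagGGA
The first 3 stretches are unbroken, with a glycine codon at the head of each triplet. The stretch of Col4a2 spans the end of its longest run and shows the interruptions for which collagen IV is known. The longest run of consecutive glycine triplets was 338 in Col1a1, 339 in Col1a2 and 344 in Col3a1, but 217 in Col27a1, 113 in Col9a3, 60 in Col8a2, 66 in Col4a2 and 40 in Col4a1. In the laminin chains no run exceeded 3 triplets.

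The matrix transcripts of the ChP were dominated by chains that are not the usual stromal collagens. In Ctrl 65.9% of the summed CPM of the 42 genes, a share of reads that is not divided by length, fell to Col9a3, Col8a2, Col8a1 and Lamb1, and none of these was a fibrillar collagen, a collagen IV or a laminin alpha chain. Col9a3, the alpha3 chain of collagen IX, had a mean of 703 ± 81.3 CPM in Ctrl (SD, n = 12): its libraries were lowest at 574 CPM (CT4), with a median of 694, and highest at 819.9 (CT0), and the SCNx libraries ran from 577 to 761 CPM (median 704). Col8a2, a chain of collagen VIII with a mean of 643 ± 65.5 CPM, was lowest at 550.3 CPM (CT16), with a median of 633, and highest at 777 (CT0) in Ctrl, and from 495 to 707 CPM (median 614) in SCNx. For both genes the ranges of the groups overlapped. Col8a1, the other chain of collagen VIII (mean 476 ± 54.2 CPM), held 377 at CT44, a median of 480.5 and 550.0 at CT36 in Ctrl and 391 to 517 CPM (median 468) in SCNx. Lamb1, the laminin beta1 chain (mean 469.7 ± 24.9 CPM), held 428 at CT4, a median of 474 and 508 at CT0 in Ctrl and 415 to 531 CPM (median 465) in SCNx. Across the 24 libraries Lamb1 spanned 1.28-fold, less than Col9a3 (1.43-fold), Col8a1 (1.46-fold) and Col8a2 (1.57-fold).

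Levels of different genes can be compared only per length. Divided by the kb of coding sequence, the mean Ctrl level was 344 CPM per kb for Col9a3, 307 for Col8a2, 213 for Col8a1 and 85.4 for Lamb1, against 34.2 for Col1a2, the highest of the fibrillar chains. On the same scale the next chains were 16.0 for Col18a1, the collagen that carries endostatin at its end, 15.1 for Lamb2 and 14.4 for Lama5. The first 8 places were taken by the same genes in the same order per kb of whole transcript. Collagen IX is built from Col9a1, Col9a2 and Col9a3, yet Col9a2 was at 2.10 CPM per coding kb in Ctrl. Col9a1 and Col2a1, the main chain of cartilage fibrils, were below the minimum, with mean Ctrl levels of 0.0422 and 0.863 CPM. The ratio of Col9a3 to Col9a2 per coding kb had a median of 175 over the 24 libraries and ran from 79.3 to 281. The chains of collagen VIII, in contrast, were within a factor of 2 of each other per coding kb in every Ctrl and SCNx library (Col8a1 over Col8a2, 0.549 to 0.844).

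**Figure D1:**
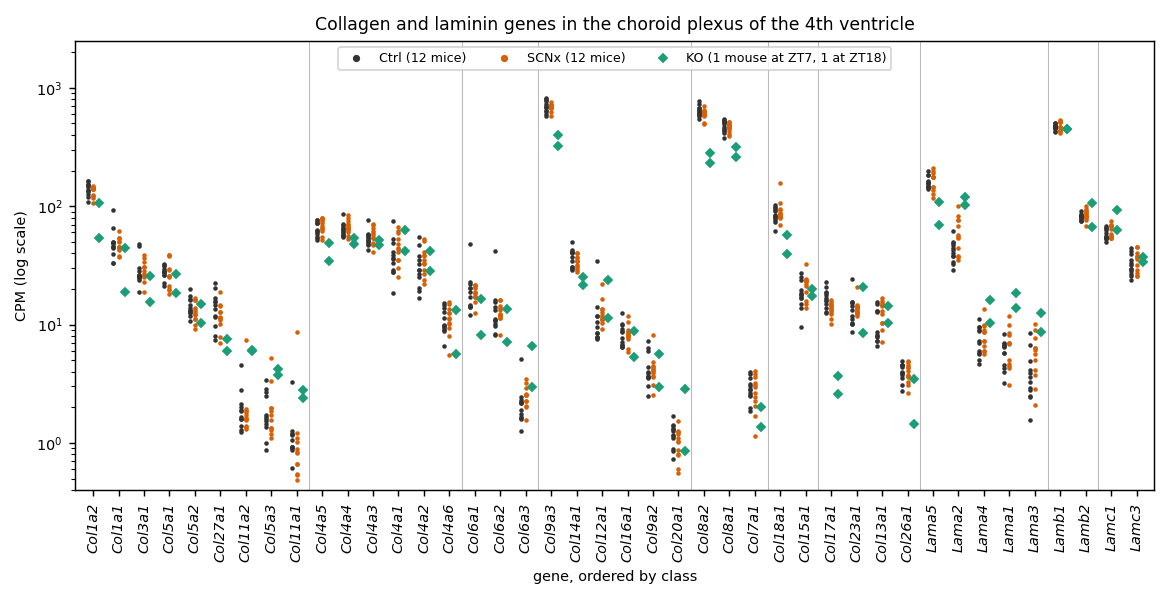
Level of the 42 collagen and laminin genes in each library, in CPM on a log axis, with black points for 12 Ctrl mice, orange points for 12 SCNx mice and green diamonds for the 2 KO mice, and grey lines between classes of chains. Col9a3, Col8a2, Col8a1 and Lamb1 of all Ctrl and SCNx libraries lie at the top, from 377 CPM upwards. Col17a1 and Col8a2 of KO lie below those of every Ctrl library, as do Col9a3, Col8a1, Lama5 and some other genes of KO.

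The fibrillar collagens had lower levels per length, 34.2 CPM per coding kb for Col1a2, 11.4 for Col1a1 and 6.61 for Col3a1. Col1a2, the alpha2 chain of collagen I, ran from 109 to 163 CPM (median 141) in Ctrl and from 106 to 149 CPM (median 140.4) in SCNx. Its partner Col1a1, of which the usual collagen I molecule holds more copies than of Col1a2, ran from 33.0 to 93.3 CPM (median 47.5) in Ctrl and from 37.4 to 61.7 CPM (median 45.5) in SCNx, and Col3a1 from 18.7 to 47.9 CPM (median 25.8) and from 18.7 to 38.7 CPM (median 27.5). Per coding kb Col1a1 was at 0.206 to 0.540 times Col1a2 over the 24 libraries (median 0.320), below 1 in each of them. Before division by length the ratio was 0.347 and 0.418 in KO and had a median of 0.339 in the 24 libraries. Over the 24 libraries Col1a1 moved with Col3a1 (Pearson r of log2 CPM 0.84) more closely than with Col1a2 (0.65). Such values describe these libraries only, since the points share tissue make-up and sequencing depth across genes. The remaining fibrillar chains had Ctrl means of 27.7 CPM (Col5a1), 14.4 (Col5a2), 13.996 (Col27a1) and 2.00 or less for Col11a2, Col5a3 and Col11a1.

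All 6 chains of collagen IV passed the minimum. They lie in the genome as 3 head-to-head pairs, and each pair moved together. Col4a1, part of the network found in most basement membranes, ran from 18.3 at CT40, a median of 36.1 and 74.7 at CT28 in Ctrl and from 25.2 at CT20, a median of 43.8 and 66.8 at CT28 in SCNx. Its neighbour Col4a2 ran from 16.9 at CT40, a median of 28.97 and 55.2 at CT28 in Ctrl and from 22.03 at CT20, a median of 34.2 and 52.4 at CT28 in SCNx. The lowest and highest libraries were thus the same for both genes in each group. Their levels spanned 4.07-fold and 3.28-fold over the 24 libraries, whereas the ratio between them spanned 1.55-fold (r 0.95). Col4a3 and Col4a4, chains of the specialised network known from the kidney glomerulus, were higher per length than Col4a1 in Ctrl, at 10.8 and 12.7 CPM per coding kb against 7.74. Col4a3 ran from 42.6 to 76.5 CPM (median 53.1) in Ctrl, Col4a4 from 55.3 to 85.7 CPM (median 62.5) in Ctrl and 52.5 to 83.6 CPM (median 65.7) in SCNx, and the ratio between them spanned 1.19-fold (r 0.96). Col4a5, their partner in that network, was at 51.6 to 76.9 CPM (median 62.6) in Ctrl and 52.3 to 79.6 CPM (median 70.2) in SCNx, and Col4a6 at 6.63 to 15.2 CPM (median 9.92) (r 0.80). Between pairs the relation was looser: r was 0.68 for Col4a3 and Col4a5, 0.40 for Col4a1 and Col4a3, and 0.17 for Col4a1 and Col4a5, the last being -0.37 within Ctrl and 0.70 within SCNx. Without the 4 libraries rich in brain or liver transcripts r was 0.95, 0.96 and 0.82 for the 3 pairs. In GENCODE vM21 exons of Col4a1 and Col4a2 share 22 bases on opposite strands, 0.332% of the exon bases of Col4a2, and the sources used here do not state whether strand was used in counting.

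**Figure D2:**
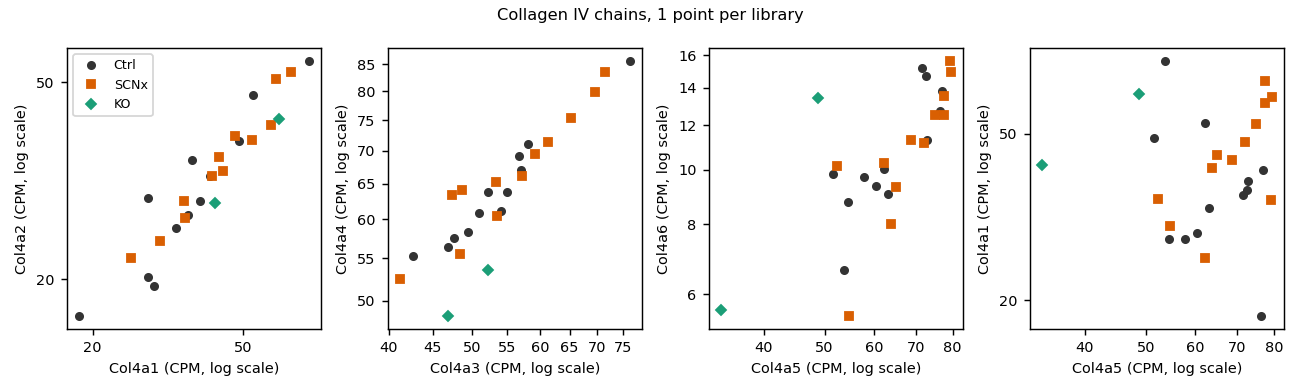
Levels of collagen IV chains against each other on log axes in CPM, 1 point per library, black for Ctrl, orange for SCNx and green for KO. The points of the neighbours Col4a1 and Col4a2 and of Col4a3 and Col4a4 follow a line (r 0.95 and 0.96), and those of Col4a5 against Col4a1 scatter (r 0.17).

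The vascular markers moved with the Col4a1 and Col4a2 pair. Over the 20 libraries other than those 4, the summed level of 5 endothelial genes had an r of 0.86 with Col4a1, 0.85 with Col4a2, 0.84 with Lama2, 0.94 with Lama3, 0.92 with Lama4 and 0.92 with Col13a1, but 0.23 with Col4a3, 0.17 with Col4a5, -0.17 with Col9a3 and -0.56 with Col8a2. The endothelial sum ran from 119 to 246 CPM in Ctrl (median 159, highest at CT28) and from 119 to 282 in SCNx (median 206, highest at CT28), and the lowest library was at CT40 in Ctrl and at CT20 in SCNx, as for Col4a1. All 5 endothelial genes were at 1 CPM or more in each of the 24 libraries. The sum of 6 mural cell genes ran from 168 to 386 CPM in Ctrl and from 172 to 372 in SCNx. In dissected tissue, fewer cells of a type and less RNA per cell cannot be told apart.

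The laminin chains were unequal. A laminin molecule takes 1 chain of each kind, yet Lamb1 exceeded Lamc1, the main gamma chain, per length in each library. Lamc1 ran from 49.6 to 68.7 CPM (median 55.7) in Ctrl and from 54.1 to 75.1 CPM (median 60.8) in SCNx, and per coding kb the ratio of Lamb1 to Lamc1 had a median of 6.95 (range 5.43 to 8.01). Per kb of whole transcript, which for Lamc1 holds a long untranslated end, the median was 10.5. The ratio to Lamc1 per coding kb was 1.28 for Lamb2 and 1.18 for Lama5. Lamc3, the gamma3 chain, ran from 23.7 to 44.4 CPM (median 30.7) in Ctrl and from 25.5 to 45.5 CPM (median 36.4) in SCNx. Lamb2, the beta2 chain, ran from 75.2 to 90.3 CPM (median 81.4) in Ctrl and from 68.4 to 100.02 CPM (median 84.4) in SCNx. Among the alpha chains Lama5, typical of mature epithelial and vascular basement membranes, had the highest level per length (14.4 CPM per coding kb), with 139 to 199 CPM (median 157) in Ctrl and 118 to 209 CPM (median 177) in SCNx. Lama2, the alpha chain whose loss causes a muscular dystrophy, followed (4.51 CPM per coding kb), with 29.01 to 61.9 CPM (median 41.5) in Ctrl. Lama4, the chain of endothelial basement membranes, held 4.64 to 11.1 CPM (median 7.14) in Ctrl and 5.61 to 13.5 CPM (median 7.98) in SCNx. Lama1 held 3.18 to 8.27 CPM (median 6.10) and 3.06 to 11.9 CPM (median 6.95), and Lama3 1.55 to 8.51 CPM (median 3.44) and 2.09 to 10.1 CPM (median 5.84). The groups overlapped for each of these chains. Lama2 and Lama3 moved together over the libraries (r 0.93), and so did Lama2 and Lama1 (0.86) and Lama2 and the collagen chain Col4a1 (0.80).

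The remaining chains are fibril-associated, transmembrane or little studied. Col14a1, which lies on collagen I fibrils, ran from 28.9 to 49.7 CPM (median 38.7) in Ctrl and from 27.6 to 40.4 CPM (median 34.2) in SCNx, and Col16a1 from 6.45 to 12.4 CPM (median 8.19) and from 5.82 to 11.7 CPM (median 8.25). Col15a1, the other multiplexin beside Col18a1, ran from 9.55 to 27.4 CPM (median 17.8) in Ctrl and from 13.8 to 32.4 CPM (median 22.7) in SCNx. The transmembrane collagens were Col23a1, at 8.58 to 24.4 CPM (median 12.4) in Ctrl and 11.9 to 20.6 CPM (median 13.3) in SCNx, and Col13a1, at 6.61 to 15.6 CPM (median 8.39) and 7.14 to 16.9 CPM (median 13.7), besides Col17a1. Col7a1, of the anchoring fibrils of skin, Col26a1 and Col20a1 had Ctrl means of 2.89, 3.99 and 1.19 CPM and SCNx means of 2.75, 3.92 and 1.003. The ranges of Ctrl and SCNx overlapped for each of them.

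Several chains were set apart by single libraries. In Ctrl CT4, where 5 astrocyte genes summed to 322 CPM against a Ctrl median of 54.9, 6 chains exceeded 2 times the median of their group. Col12a1, which associates with collagen I fibrils, was at 34.6 CPM against a group median of 9.02 and a next highest library of 13.97. Col6a2, a chain of the beaded filaments of collagen VI, was at 41.8 CPM against a group median of 11.03 and a next highest library of 16.0, Col6a1 at 47.8 CPM against a group median of 17.9 and a next highest library of 22.9, and Col6a3 at 5.13 CPM against a group median of 2.02 and a next highest library of 2.45. The low fibrillar chains Col11a1 and Col11a2 were at 3.24 and 4.57 CPM there, against medians of 0.995 and 1.76. In SCNx CT32, the other library rich in brain markers (astrocyte sum 840.2 CPM), the same 2 chains were at 8.59 and 7.43 CPM, against medians of 0.826 and 1.62, and Col5a3 was at 5.21 against 1.64. The collagen VI chains were not raised in the same way in SCNx CT32, where Col6a1 was at 18.9 and Col6a2 at 16.0 CPM, within the range of the other SCNx libraries. The meningeal sum was 52.9 CPM in Ctrl CT4 and 37.9 in SCNx CT32, against medians of 11.3 and 14.1, with 1 of its 5 genes at 1 CPM or more in all 24 libraries, and its part in these values was not tested. Outside these libraries Lama3 at Ctrl CT8 (8.51 CPM), Col4a1 at Ctrl CT28 (74.7 CPM) and Col5a3 at Ctrl CT0 (3.39 CPM) and SCNx CT0 (3.33 CPM) exceeded 2 times their group's median. Col18a1 was at 157 CPM in SCNx CT0, the library with the most hepatocyte transcripts, and ran from 70.0 to 157 CPM (median 86.1) over the SCNx libraries and from 62.1 to 102 CPM (median 83.7) over those of Ctrl.

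**Figure D3:**
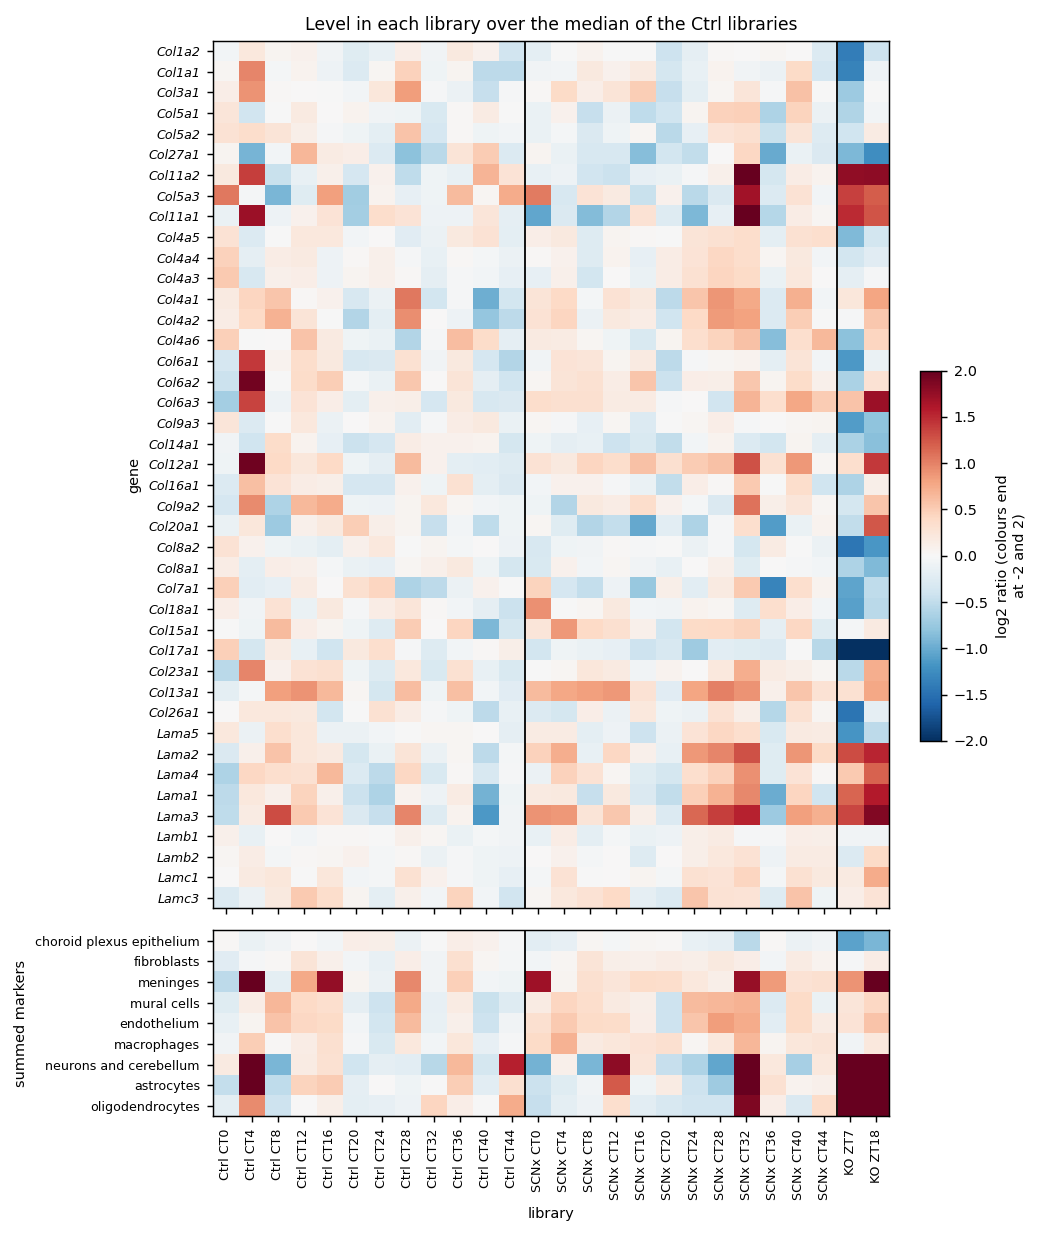
Level of each of the 42 genes (upper panel) and of summed markers of 9 cell types (lower panel) in the 26 libraries, as the log2 ratio to the median of the Ctrl libraries, red above and blue below. Ctrl CT4 shows Col6a1, Col6a2, Col6a3 and Col12a1 in red above raised brain and meningeal markers, and SCNx CT32 and both KO libraries show Col11a1, Col11a2, Lama1, Lama2 and Lama3 in red.

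The comparison of SCNx with Ctrl over all times asked whether the lesion changed the level of the matrix genes. None of the 42 genes passed edgeR's quasi-likelihood test (p-values adjusted by Benjamini-Hochberg) at 0.05, as none of the 13697 genes did (0% called in each direction). At an unadjusted p under 0.05, 1 of 42 was higher in SCNx (2.38%, against 4.78% of all genes tested) and 1 was lower (2.38%, against 4.58%). DESeq2 and limma-trend also called none of the 42, while of all genes DESeq2 called 14 (0.102%) and limma-trend 0. The 42 adjusted p-values of edgeR were 0.366 or more. The fitted log2 fold changes ran from -0.31 to 0.52 with a median of 0.05, against 0.01 over all genes. For none of the 42 did the ranges of the 12 Ctrl and the 12 SCNx libraries lie apart, but the share over all genes was not computed. Fitted changes were above 0 for 24 of the 42 (57.1%, against 56.5% of all genes). By class they were above 0 for all 6 collagen IV chains, all 9 laminin chains and both multiplexins, but for 3 of 9 fibrillar chains, 1 of 6 fibril-associated chains, 1 of 3 collagen VI chains, 2 of 4 transmembrane and other chains and none of the 3 short-chain and anchoring chains. No chain of any class passed the test. Without Ctrl CT4 and SCNx CT32, 5 of 40 had an unadjusted p under 0.05 (against 8.67% of all genes, both directions together).

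**Figure D4:**
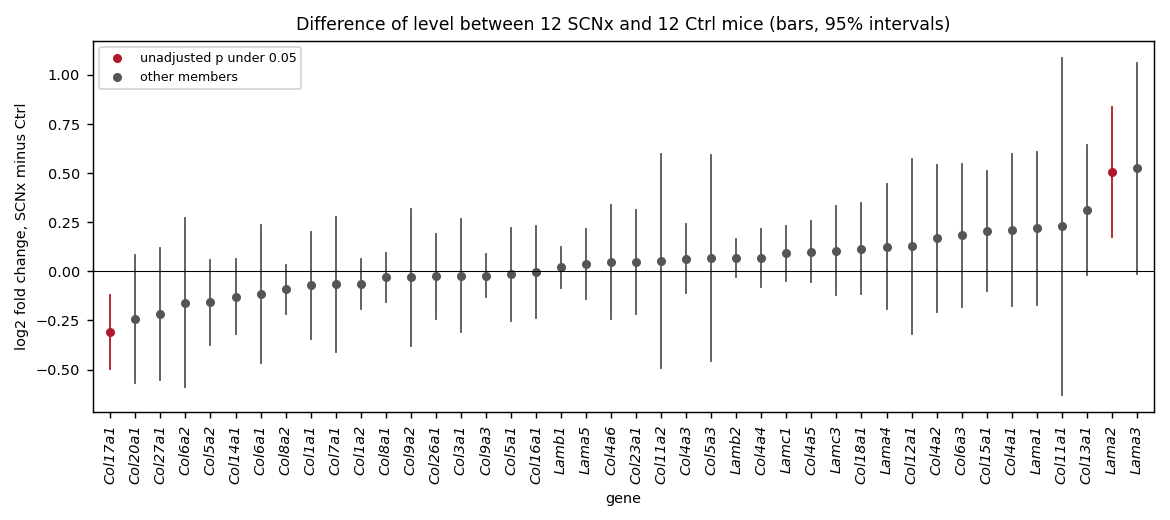
Fitted log2 fold change of the level, SCNx minus Ctrl, with 95% intervals for the 42 genes in order of size (12 mice per group). Red marks Lama2 and Col17a1, whose intervals leave out 0 before adjustment, and no gene passed the adjusted test.

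The gene that was nominally higher was Lama2. Its Ctrl libraries were lowest at 29.01 CPM (CT40), with a median of 41.5, and highest at 61.9 (CT8), and its SCNx libraries lowest at 35.0 CPM (CT36), with a median of 56.1, and highest at 101 (CT32). The groups overlapped, and 5 of the 12 SCNx libraries (CT4, CT24, CT28, CT32 and CT40) exceeded the highest Ctrl library. The means were 42.2 ± 8.98 CPM in Ctrl and 60.4 ± 20.6 in SCNx (SD, n = 12 each). The log2 fold change was 0.51 ± 0.16 (SE; 95% interval 0.18 to 0.84), for which edgeR's quasi-likelihood test gave p = 0.00423 unadjusted and p = 0.393 adjusted. Without SCNx CT32, its highest library, it was 0.43. The endothelial sum, with which Lama2 moved, had medians of 159 CPM in Ctrl and 206 in SCNx, and its part in the difference was not tested. The gene that was nominally lower was Col17a1, a collagen that spans the cell membrane and anchors epithelial cells in hemidesmosomes. Its Ctrl libraries were lowest at 12.5 CPM (CT16), with a median of 16.5, and highest at 23.005 (CT0), and its SCNx libraries lowest at 10.1 CPM (CT24), with a median of 13.8, and highest at 16.3 (CT40). In 3 SCNx libraries the level was below the lowest Ctrl library, and the groups overlapped otherwise. The means were 16.8 ± 3.17 and 13.6 ± 1.79 CPM, and the log2 fold change was -0.31 ± 0.09 (95% interval -0.49 to -0.12), with p = 0.00231 unadjusted and p = 0.366 adjusted in the edgeR fit. Lama3, which moved with Lama2, had the highest fitted change of the 42 and an unadjusted p of 0.0560 by edgeR's quasi-likelihood test.

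Whether the matrix genes cycled was tested with a 24 h cosine fitted to each group. In Ctrl 5 of 42 genes passed edgeR's quasi-likelihood test (p-values adjusted by Benjamini-Hochberg) (11.9%, against 10.7% of all genes tested), namely Col1a1, Col3a1, Col1a2, Col4a2 and Col27a1. At an unadjusted p under 0.05 there were 19 of 42 (45.2%, against 24.8% of all genes). Of these 19, 17 had their fitted peak in the subjective day, between CT0 and CT12, as did 50.2% of all genes with such a p. The other two were Col27a1 and Col17a1. The share is a description, since these genes were measured in the same 12 libraries and several of them moved together. In Ctrl the endothelial and mural sums were highest at CT28 and CT8 and lowest at CT40. Over the 20 libraries other than those rich in brain or liver transcripts, r with the endothelial sum varied widely among the 17. It was 0.94 for Lama3, 0.92 for Col13a1, 0.86 for Col4a1, 0.85 for Col4a2, 0.83 for Col15a1 and 0.75 for Col6a1. For Lamc3 it was 0.71, for Col16a1 0.67, for Col12a1 0.65 and for Col6a2 0.64. Lower values were 0.56 for Col1a1, 0.49 for Col3a1, 0.48 for Col14a1, 0.47 for Col8a1, 0.40 for Col26a1 and 0.39 for Col1a2, and Col8a2 had -0.56. The part of these cells in the day peaks was not tested. The median fitted amplitude in Ctrl was 0.27 log2 units over the 42 genes and 0.11 over all genes, and in SCNx 0.16 and 0.09. A fitted amplitude cannot fall below 0 and also takes up scatter between libraries, so these medians alone do not show cycling. In SCNx no member passed the edgeR test (0% of all genes did), 4 of 42 had an unadjusted p under 0.05 (9.52%, against 14.8% of all genes), and DESeq2 and limma-trend called none of the 42, although DESeq2 called 432 of all genes (3.15%). Without SCNx CT40, 18 of 41 members had an unadjusted p under 0.05 in SCNx (against 16.1% of all genes), and none of them passed the adjusted edgeR test. The 3 with the smallest p in SCNx were Lama5 (unadjusted p = 0.00582, amplitude 0.26), Col1a2 (0.0348, 0.13) and Col13a1 (0.0354, 0.34), all by the same edgeR fit. A call in one group alone is not a difference between groups, and the difference of the fitted rhythms passed for 1 of 42 genes, Col27a1 (2.38%, against 2.12% of all genes).

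Col1a1 and Col3a1, chains of the main stromal fibrils, shared their 2 highest Ctrl libraries, 1 on each day. Col1a1 was at 93.3 CPM at CT4 and 65.6 at CT28, and the other 10 Ctrl libraries lay between 33.0 (CT40) and 50.2 (CT12). Col3a1 was at 47.9 at CT4 and 46.1 at CT28, and otherwise between 18.7 (CT40) and 30.1 (CT24). Both genes thus had single high libraries 24 h apart. The epithelial sum was lowest in Ctrl at these times (91350 CPM at CT4 and 92023 at CT28), and at CT28 the mural and endothelial sums were at their Ctrl maximum (386 and 246 CPM). The sum of 5 fibroblast genes was 366 CPM at CT4 and 408 at CT28, against a Ctrl median of 372 and a maximum of 464 at CT36. Over the 20 libraries not rich in brain or liver transcripts, the fibroblast sum had an r of 0.34 with Col1a1 and 0.04 with Col3a1. The part of these cells in the peaks was not tested. In the fit for Ctrl, Col1a1 had an amplitude of 0.45 ± 0.10 log2 units (SE) and a fitted peak 5.02 h after CT0, with an adjusted p of 0.0124 by edgeR's quasi-likelihood test, and Col3a1 an amplitude of 0.45 ± 0.11 log2 units (SE) and a fitted peak 3.56 h after CT0, with an adjusted p of 0.0189. Ctrl CT4 is the library rich in brain and meningeal markers. Without it the adjusted p was 0.0621 for Col1a1 and 0.0842 for Col3a1 by the same edgeR test, with amplitudes of 0.31 and 0.37. Without both Ctrl CT4 and SCNx CT32 Col1a1 kept its call (adjusted p = 0.0432 by edgeR, amplitude 0.31), with fewer genes tested and a larger share of all genes called (16.5%), and Col3a1 did not. The call of Col3a1 was also lost without Ctrl CT28 (adjusted p = 0.0815 by edgeR) and without Ctrl CT40 (0.0625). With a linear trend added to the fit, neither Col1a1 nor Col3a1 was called. In SCNx Col1a1 ran from 37.4 at CT20, a median of 45.5 and 61.7 at CT40, and Col3a1 from 18.7 at CT20, a median of 27.5 and 38.7 at CT40. Their SCNx libraries overlapped those of Ctrl, the fitted SCNx amplitudes were 0.11 and 0.15, and the difference of the rhythms had an adjusted p of 0.143 for Col1a1 and 0.104 for Col3a1 by edgeR's quasi-likelihood test.

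Col1a2 and Col4a2 peaked in the subjective day too. Col1a2 was lowest at CT20 (119 CPM) on the first day and at CT44 (109) on the second, 24 h apart, and the other 10 Ctrl libraries lay between 128 (CT24) and 163 (CT4). Its SCNx libraries were also lowest at CT20 (106 CPM) and CT44 (117). It had an amplitude of 0.18 ± 0.05 log2 units (SE) and a fitted peak 8.07 h after CT0, with an adjusted p of 0.0334 by edgeR's quasi-likelihood test in Ctrl, and the difference from SCNx had an adjusted p of 0.794. The call was lost without any 1 of 6 Ctrl libraries, CT8, CT20, CT24, CT28, CT36 and CT44, with adjusted p by edgeR between 0.0559 and 0.148. It was also lost with no filter on low counts, with Ctrl fitted alone and with a linear trend, in all in 9 of 33 alternative fits. Col4a2 was highest at Ctrl CT28 (55.2 CPM) and CT8 (47.0) and lowest at CT40 (16.9) and CT20 (19.4). It had an amplitude of 0.59 ± 0.14 log2 units (SE) and a fitted peak 6.07 h after CT0, with an adjusted p of 0.0188 by edgeR in Ctrl, and the difference from SCNx had an adjusted p of 0.495. The call was lost without CT8, CT20, CT28, CT40 or CT44 of Ctrl, with adjusted p by edgeR between 0.0514 and 0.0633. The endothelial sum had the same 2 highest Ctrl libraries, CT28 (246 CPM) and CT8 (236), and its part in the rhythm was not tested. Col4a1, its neighbour, had an amplitude of 0.51 ± 0.17 log2 units (SE) and a fitted peak 5.07 h after CT0, with an adjusted p of 0.0919 by edgeR's quasi-likelihood test and did not pass.

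Col27a1, a fibrillar collagen with a shorter helix, had a later fitted peak than the other 4 (15.2 h after CT0, against 3.56 to 8.07 h). In Ctrl it was highest at CT12 (22.6 CPM) on the first day and at CT40 (20.2) on the second, and lowest at CT4 (7.42) and CT28 (7.98). It had an amplitude of 0.51 ± 0.13 log2 units (SE) and a fitted peak 15.2 h after CT0, with an adjusted p of 0.0278 by edgeR's quasi-likelihood test. In SCNx it ran from 7.05 at CT36, a median of 11.47 and 18.8 at CT32, with a fitted amplitude of 0.27 and a fitted peak 3.33 h after CT0 (adjusted p = 0.426, edgeR). For the difference of the rhythms edgeR gave an adjusted p of 0.0481, close to the threshold. That call was lost in 19 of the 24 fits that left out 1 library, with adjusted p up to 0.111 by edgeR (without SCNx CT16), and the call in Ctrl was lost without CT4, CT12, CT28 or CT40 of Ctrl (adjusted p between 0.0636 and 0.0879 by edgeR). The difference, taken as the amplitude of one fitted curve minus the other so that phase counts too, was 0.79 log2 units in the fit of all libraries and between 0.72 and 0.89 in those fits. The next smallest p of the difference were those of Col3a1 (0.00391) and Col1a1 (0.00734), both unadjusted. Of the 19 genes with an unadjusted p under 0.05 in Ctrl, the 14 that did not pass had adjusted p from 0.0537 (Col13a1) to 0.198 (Lama3) by edgeR's quasi-likelihood test, and they included Col6a1, Col6a2, Col12a1, Col14a1, Col15a1, Col16a1, Lamc3, Col8a1 and Col8a2.

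**Figure D5:**
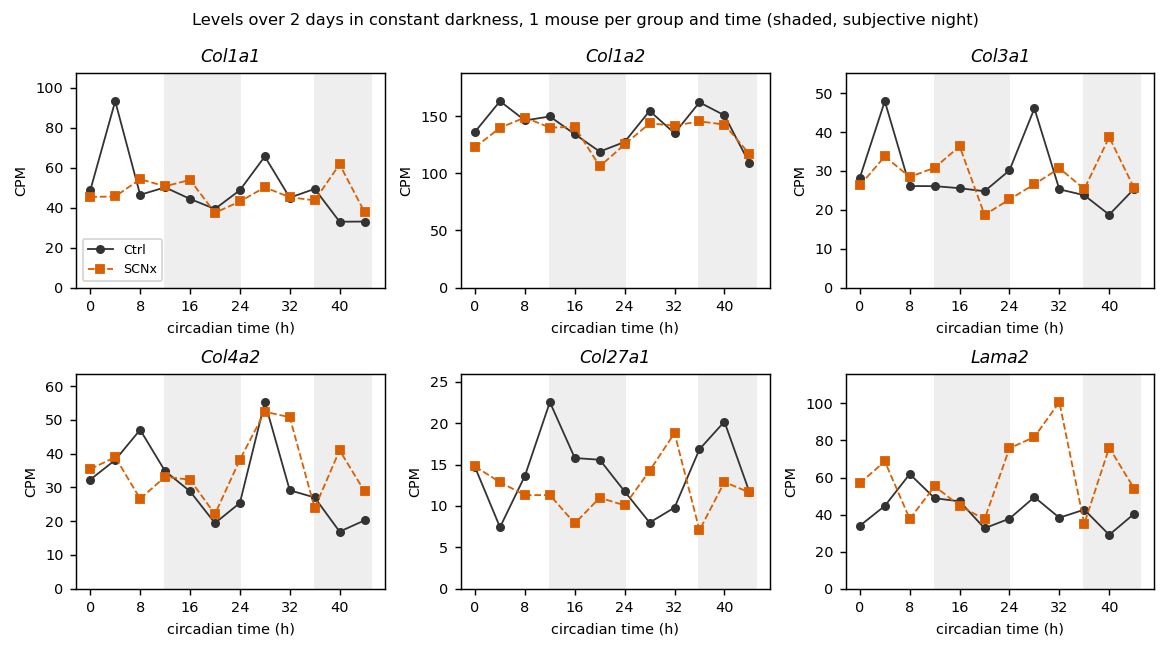
Level in CPM against circadian time in h for the 5 genes called rhythmic in Ctrl and for Lama2, with 1 mouse per group and time, black circles for Ctrl, orange squares for SCNx and grey bands for the subjective night. Col1a1 and Col3a1 of Ctrl are high at CT4 and CT28, Col27a1 of Ctrl is low at the same times, and Lama2 of SCNx reaches 101 CPM at CT32.

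Promoter windows are printed for 3 of the 5 rhythmic genes and for the 2 genes with a nominal change of level, so that their start regions can be compared. They hold the 250 bases before the transcription start from RefSeq (GRCm38.p6), 5′ to 3′ on the strand of the gene, and 30 of the 42 genes matched that table. Capitals mark the letters searched for on either strand: the E-box CACGTG, the D-box TTANGTAA, the half-site AGGTCA of the REV-ERB and ROR receptors, the CCAAT box, the TATA box TATAAA and the GC box GGGCGG. The windows lie at chr6:4505368-4505617, plus strand (Col1a2), chr1:45311288-45311537, plus strand (Col3a1), chr4:63215162-63215411, plus strand (Col27a1), chr10:27616943-27617192, minus strand (Lama2) and chr19:47692043-47692292, minus strand (Col17a1).
Col1a2: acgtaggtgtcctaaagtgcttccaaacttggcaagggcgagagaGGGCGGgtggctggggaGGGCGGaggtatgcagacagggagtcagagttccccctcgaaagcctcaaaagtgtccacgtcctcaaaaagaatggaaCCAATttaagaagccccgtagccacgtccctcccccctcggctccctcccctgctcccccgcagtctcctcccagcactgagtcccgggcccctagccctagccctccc
Col3a1: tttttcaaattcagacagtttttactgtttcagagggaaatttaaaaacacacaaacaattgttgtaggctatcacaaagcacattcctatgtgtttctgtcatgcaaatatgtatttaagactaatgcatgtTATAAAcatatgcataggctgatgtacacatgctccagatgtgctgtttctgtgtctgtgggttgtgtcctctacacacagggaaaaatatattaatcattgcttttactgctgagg
Col27a1: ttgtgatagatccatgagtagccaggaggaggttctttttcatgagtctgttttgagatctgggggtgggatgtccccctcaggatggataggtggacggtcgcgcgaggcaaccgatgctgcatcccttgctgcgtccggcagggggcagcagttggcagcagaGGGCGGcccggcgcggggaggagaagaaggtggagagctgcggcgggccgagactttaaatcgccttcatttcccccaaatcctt
Lama2: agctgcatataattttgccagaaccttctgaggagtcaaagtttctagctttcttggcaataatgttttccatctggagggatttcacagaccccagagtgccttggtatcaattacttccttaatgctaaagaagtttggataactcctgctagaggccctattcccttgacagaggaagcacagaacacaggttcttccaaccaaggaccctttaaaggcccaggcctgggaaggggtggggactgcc
Col17a1: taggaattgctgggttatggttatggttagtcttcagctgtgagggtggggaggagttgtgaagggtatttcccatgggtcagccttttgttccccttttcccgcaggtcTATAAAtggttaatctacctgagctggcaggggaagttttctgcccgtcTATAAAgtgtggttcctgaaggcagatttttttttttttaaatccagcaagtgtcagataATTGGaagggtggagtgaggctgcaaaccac
The E-box was in none of the 30 windows and in 6.02% of all 32851 windows of that table, and the D-box in none and in 2.06%. The half-site was in 5 of 30 windows and in 14.02% of all, and none of those windows belonged to Col1a2, Col3a1, Col27a1 or Col4a2. The GC box was in 19 of 30 (32.7% of all), the CCAAT box in 11 (33.8%) and the TATA box in 4 (12.4%). Col1a2 holds 2 GC boxes and a CCAAT box, Col3a1 a TATA box, Col27a1 a GC box, Col17a1 2 TATA boxes and a CCAAT box, and Lama2 none of the 6. The window of Col4a2, not printed, holds 2 GC boxes and a CCAAT box, and Col1a1 had no entry in the table. The letters describe these windows only.

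The KO libraries were described without a test, since there was 1 mouse per time. They differ from Ctrl in genotype, tamoxifen, age, the absence of a sham operation, light regime, site of housing, laser capture from frozen tissue, RNA integrity and library kit, and these cannot be told apart. Of the 42 genes, 2 were more than 2-fold lower in KO with both libraries below the Ctrl range (4.76%, against 12.8% of all genes tested), and 5 were more than 2-fold higher with both above it (11.9%, against 6.60%). The lower ones were Col17a1, at 2.58 CPM at ZT7 and 3.71 at ZT18 against 12.5 to 23.005 in Ctrl (0.187 times the Ctrl mean), and Col8a2, at 233 CPM at ZT7 and 282 at ZT18 against 550.3 to 777 (0.401 times). The summed epithelial markers of KO were also below the Ctrl range, at 47502 and 52766 CPM, and their part in these values was not tested. Col9a3 was at 320.0 CPM at ZT7 and 398 at ZT18, 0.511 times the Ctrl mean, and Col8a1 at 314 CPM at ZT7 and 261 at ZT18, 0.605 times. Lamb1 was at 451 CPM at ZT7 and 452 at ZT18, within the Ctrl range. The higher ones were 3 laminin alpha chains and 2 minor fibrillar chains. Lama2 was at 102 CPM at ZT7 and 119 at ZT18, 2.62 times the Ctrl mean, Lama1 at 13.7 CPM at ZT7 and 18.4 at ZT18 (2.79 times) and Lama3 at 8.72 CPM at ZT7 and 12.5 at ZT18 (2.68 times). Col11a2 was at 6.03 CPM at ZT7 and 6.09 at ZT18 (3.03 times) and Col5a3 at 4.19 CPM at ZT7 and 3.77 at ZT18 (2.11 times). These 5 genes were also highest, among the SCNx libraries, in SCNx CT32, which like KO was rich in brain markers, as were 36.0% of all genes tested. In Ctrl CT4, also rich in brain markers, Lama2, Lama1 and Lama3 were at 44.7, 7.04 and 3.87 CPM, near their Ctrl medians of 41.5, 6.10 and 3.44. The part of brain cells was not tested. Lama5 was lower, at 69.5 CPM at ZT7 and 109 at ZT18, 0.555 times the Ctrl mean, so that Lama2 over Lama5 was 1.47 and 1.09 in KO against 0.183 to 0.505 over Ctrl and SCNx (in CPM). The fibrillar chains Col1a1, Col1a2 and Col3a1 were at 0.636, 0.570 and 0.711 times the Ctrl mean, and Col27a1, at 7.58 CPM at ZT7 and 5.98 at ZT18, at 0.484 times. The ZT18 mouse had the higher value in 37 of the 42 genes, and the share over all genes was not computed. The summed markers of epithelium (47502 and 52766 CPM), meninges (21.1 and 70.2) and oligodendrocytes (307 and 446) were also higher at ZT18. With 1 mouse per time, differences of time, mouse and library cannot be told apart. The median log2 ratio of KO to Ctrl was -0.15 over the 42 genes and -0.26 over all genes tested.

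Other genes that make, bind or degrade the matrix were tested for comparison: 113 of 129 listed genes passed the minimum. None passed the test of level, 6 were higher (5.31%, against 4.78% of all genes) and 16 lower (14.2%, against 4.58%) in SCNx at an unadjusted p under 0.05. In the synthesis and crosslinking list the smallest p belonged to P3h4 and P3h1 of the prolyl 3-hydroxylase family. In the next lists they belonged to the basement membrane genes Nid2 and Fbln1 and to the receptors Ddr1 and Sdc4. In the last lists they belonged to Mmp15 and Reck of the proteases and their inhibitors, and to Fmod and Tnxb of the small leucine-rich and elastic genes. Fmod, which binds collagen fibrils, was at 33.3 ± 9.44 CPM in Ctrl and 25.4 ± 2.16 in SCNx (log2 fold change -0.39 ± 0.11, adjusted p = 0.366 by edgeR's quasi-likelihood test). Tnxb, which helps to space the fibrils, was at 14.9 ± 3.49 and 19.5 ± 3.34 (log2 fold change 0.39 ± 0.12, adjusted p = 0.366). A rhythm in Ctrl was called for 20 of 113 (17.7%, against 10.7% of all genes), none was called in SCNx (19 of 113 at an unadjusted p under 0.05, 16.8% against 14.8% of all genes), and the difference was called for 5 (4.42%, against 2.12%).

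Amplitudes of these genes are in log2 units and peaks in h after CT0. In the synthesis and crosslinking list the rhythm was called for 5 of 28 genes. P4ha1, a catalytic chain of the prolyl 4-hydroxylase on which helix stability depends, peaked in the late subjective night (amplitude 0.42, peak at 20.3 h), Fkbp10, a collagen chaperone, in the day (amplitude 0.47, peak at 9.24 h), and Lox and Loxl4, of the lysyl oxidases that crosslink fibrils, in the day (amplitude 0.80, peak at 2.79 h, and amplitude 0.43, peak at 6.73 h). Pcolce2, an enhancer of procollagen cleavage, was the fifth (amplitude 0.27, peak at 14.6 h). Of the other basement membrane genes 2 of 17 were called, Npnt, a ligand of the integrin with the alpha8 chain (amplitude 0.77, peak at 4.21 h), and Ntn4, which binds laminin (amplitude 0.45, peak at 14.6 h). Of the matrix receptors 5 of 24 were called. They were Itga8 (amplitude 0.51, peak at 7.66 h), Itga7, a laminin receptor chain (amplitude 0.38, peak at 8.26 h), Itga9 (amplitude 0.41, peak at 0.927 h), Itgb8 (amplitude 0.37, peak at 1.71 h) and Mrc2, which takes up collagen (amplitude 0.33, peak at 10.2 h). Of the proteases and inhibitors 5 of 20 were called, Mmp11 (amplitude 0.19, peak at 22.7 h), Mmp14 (amplitude 0.12, peak at 23.4 h), Ctsk, a collagen-degrading cathepsin (amplitude 0.37, peak at 9.11 h), Reck (amplitude 0.18, peak at 13.8 h) and Timp3, an inhibitor of metalloproteinases at 951 ± 186 CPM in Ctrl (amplitude 0.33, peak at 14.1 h). Of the small leucine-rich and elastic genes 3 of 24 were called, Fbln5 (amplitude 0.27, peak at 21.6 h), Postn (amplitude 0.29, peak at 10.3 h) and Tnxb (amplitude 0.37, peak at 11.3 h). Among the 20 called genes, P4ha1, Timp3, Ntn4, Pcolce2, Reck, Mmp11, Mmp14 and Fbln5 peaked between CT12 and CT24. The calls of Fkbp10, P4ha1, Lox, Npnt, Mrc2, Itga7, Itga8, Itga9, Timp3 and Fbln5 were kept in all 33 alternative fits, and each of the other 10 genes lost its call in at least 1 of them, Mmp14 in 21.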

How the data were processed

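The authors prepared libraries with a KAPA mRNA kit (Ctrl, SCNx) or a Smarter Stranded low-input kit (KO) and deposited gene-level estimated counts. The submitters' notes name Salmon 1.9.0, STAR, cutadapt 3.4, SAMtools 1.16.1, StringTie 2.2.1 and GRCm39. The estimated counts as deposited were rounded to whole numbers. CPM were computed over all 55416 genes listed. Genes whose mean CPM reached 1 in both Ctrl and SCNx were fitted with edgeR 4.0.16 (TMM, quasi-likelihood; R 4.3.3) on all 24 Ctrl and SCNx libraries, and p-values were adjusted by Benjamini-Hochberg over all 13697 genes, with a threshold of 0.05. The level model held the group, and the rhythm model a 24 h cosine and sine per group. Amplitudes and their p-values came from the edgeR fit. The SE of an amplitude or of a difference of rhythms came from a least-squares fit of the same model to log2 CPM. Replicates were the 12 mice of a group taken at 12 times, so p-values measure the spread of mice around the fit of their group. Ctrl and SCNx shared 1 estimate of that spread per gene. DESeq2 1.42.0, limma 3.58.1, DESeq2 size factors, a minimum CPM of 5, no minimum, a linear trend, single-group fits and leaving out each library were tried. The fitting procedure was tested on simulated data. KO values were compared without a test, as ratios to the Ctrl mean.

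The genes and lists were chosen with earlier results of these data known. Values are given for the 10 highest chains, those with an unadjusted p under 0.05, those with 1 library over 2 times the group median, collagens I, III and IV and the laminins; fold changes and amplitudes only for those with such a p; from the other lists, genes with an adjusted p under 0.05 or else the 2 smallest p. Chains outside these groups were added after their values were seen, as were ratios between chains. Coding and transcript lengths came from GENCODE vM21 and promoters from RefSeq (GRCm38.p6), and no coordinates of GRCm39 are given. Exons of 12 of the 42 genes overlapped another gene there, by at most 6.27% of their bases.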

Additional observations from a re-analysis of the deposited data

Results flagged for a closer look

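For 6 genes the fitted 24 h rhythm differed between Ctrl and SCNx when the difference itself was tested with edgeR's quasi-likelihood test, 1 of them a collagen and 5 of them other matrix genes. The size of a difference is the amplitude of the fitted Ctrl curve minus the SCNx curve, so it depends on phase as well and can exceed the difference of the amplitudes. Col27a1 had an amplitude of 0.51 in Ctrl and 0.27 in SCNx (difference 0.79 ± 0.18 SE, edgeR adjusted p = 0.0481), and the call was lost in 20 of 32 alternative fits. Npnt had a fitted amplitude of 0.77 log2 units in Ctrl, with a peak 4.21 h after CT0, and of 0.18 in SCNx (difference 0.94 ± 0.11 SE, edgeR adjusted p = 0.000229). Its call was kept in all 32 alternative fits, with adjusted p up to 0.00150 in edgeR, DESeq2 and limma. P4ha1 had a fitted amplitude of 0.42 log2 units in Ctrl, with a peak 20.3 h after CT0, and of 0.25 in SCNx (difference 0.33 ± 0.06 SE, edgeR adjusted p = 0.0205). That call was also kept in all 32 (adjusted p up to 0.0468 by the same tools), and P4ha1 in SCNx alone gave p = 7.18e-05 unadjusted and p = 0.137 adjusted in edgeR's quasi-likelihood test. Itga7 had a fitted amplitude of 0.38 log2 units in Ctrl, with a peak 8.26 h after CT0, and of 0.13 in SCNx (difference 0.36 ± 0.07 SE, edgeR adjusted p = 0.0245). Timp3 had a fitted amplitude of 0.33 log2 units in Ctrl, with a peak 14.1 h after CT0, and of 0.09 in SCNx (difference 0.36 ± 0.07 SE, edgeR adjusted p = 0.0290). The calls of Itga7 and Timp3 were each lost in 6 of 32 alternative fits. Itga9 had a fitted amplitude of 0.41 log2 units in Ctrl, with a peak 0.927 h after CT0, and of 0.03 in SCNx (difference 0.43 ± 0.10 SE, edgeR adjusted p = 0.0424). The call of Itga9 was lost in 20 of 32.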

How the results depend on the processing

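With 1 mouse per group and time, the tests rest on the spread of the 12 mice of each group around its mean or cosine. Except in the single-group fits, both groups shared 1 estimate of that spread per gene. Leaving out a SCNx library therefore also changes the tests in Ctrl. Separate litters, dissections and days cannot be told apart from time. The length per transcript, both other settings for KO and the correlations over 20 libraries were chosen after seeing the data. No gene of the 42 passed the level test in any of 33 alternatives (adjusted p of Lama2 and Col17a1 between 0.160 and 0.660 by edgeR, DESeq2 or limma), and neither of these genes changed direction. The count of 5 rhythmic genes in Ctrl was 12 in DESeq2, 8 without Ctrl CT4 and SCNx CT32, 10 without Ctrl CT16 and SCNx CT0, 2 with a linear trend (Col27a1 and Col4a2, with 10.6% of all genes called), and between 2 (without Ctrl CT28) and 10 (without Ctrl CT16) when 1 library was left out. It was 3 without each of Ctrl CT4, CT8, CT20, CT40 and CT44, where 10.8%, 7.51%, 7.79%, 9.96% and 6.70% of all genes were called. It was 8 of 42 without Ctrl CT32 (8.75% of all genes) and 8 of 40 without SCNx CT32 (16.6%). The share of all genes was 9.17% without Ctrl CT28 and 10.6% without Ctrl CT16. Over all genes the Ctrl count was 1459 (10.7%) in edgeR, 2053 (14.99%) in DESeq2, 2223 (16.5%) without Ctrl CT4 and SCNx CT32 and 1669 (12.3%) without Ctrl CT16 and SCNx CT0, so that the count over all genes moved too. In SCNx the count of 0 became 1 (Lama5) with no filter on low counts, where 3.44% of all genes were called, and was 0 in the other settings. The count of 1 gene with a different rhythm (2.12% of all genes) was 3 in DESeq2 (4.30% of all genes) and 3 with no filter (1.62%). It was 2 without Ctrl CT4 and SCNx CT32 (3.74% of all genes) and 0 without Ctrl CT16 and SCNx CT0 (1.57%). When 1 library was left out the count was between 0 and 2, with 2 reached without SCNx CT32 (3.44% of all genes). The cause was not tested. The set of genes tested shifts slightly where a library is left out, since the minimum is applied again. The median of Lamb1 over Lamc1 was 10.5 per kb of transcript against 6.95 per coding kb, owing to the longer transcript of Lamc1. Against the Ctrl range without Ctrl CT4 the KO counts were 7 higher and 3 lower genes, in place of 5 and 2, and with CPM over the tested genes they were 5 and 2. The shares over all genes were not computed for these settings. The r of Col4a1 over 20 libraries was 0.95 with Col4a2 and 0.17 with Col4a5, as over 24.

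With the circadian time as a replicate block, 0 of the 42 genes were called for level, and 0 of all genes. At an unadjusted p under 0.05 there were 4 of 42 (against 6.84% of all genes). The log2 change in that fit was 0.47 for Lama2 and -0.30 for Col17a1. For libraries of the same time, r over genes between the deviations from their group means ran from -0.32 to 0.37. It was over 0.1 in 5 of 12 pairs, and 1 of 12 libraries was closest to its own number. Pairs with a library rich in brain or liver transcripts had -0.25 (CT0), -0.25 (CT4), -0.32 (CT16) and -0.27 (CT32). The other pairs ran from -0.01 (CT44) to 0.37 (CT20). Such libraries weigh on r, so these values cannot decide whether the shared number marks more than the time.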
